A study of Mus musculus with 4 samples.

Results

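Chromosome 12 was read as a stretch of neighbouring genes in neurospheres, the free-floating cultures that neural stem cells form in serum-free medium with EGF. Its members were all non-control probes that the array files place on that chromosome, 1489 of 41174 probes, ordered by start and divided into 4 stretches, at 66 Mb, at 72 Mb and 29 Mb beyond that, between the genes Tunar and Bdkrb2. The stretches were chosen by the same log2 ratios that are reported here: the stretch from 66 to 72 Mb because it differed between the mutant lines, and the last stretch because it was higher in both. The medians and counts by stretch are therefore a description, with no test, and nothing is supported by them. The stretches held 542, 137, 512 and 298 probes in chromosome order.

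Neurospheres came from mice of mixed 129/Sv and C57BL/6 background. The mutants carry changes in Dll1 and are named Dll1-3 and Dll1-5, and wild-type neurospheres of the same mixed background served as the control for each. Each line had 2 arrays of 2 colours, replicate 1 with Cy5 on the mutant and Cy3 on the wild-type RNA, and replicate 2 the other way round. RNA was pooled from 3 preparations, so each line was counted as 1 pooled sample, and values over both lines have n = 2. What the alleles change, and whether both lines shared their wild-type RNA, were not given in the sources used here. The lines may differ at once in allele, culture, pool and make-up of the mixed background, so these cannot be told apart. In bulk RNA, fewer cells of a type and less RNA per cell cannot be told apart either.

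Dll1 is a membrane ligand that activates Notch receptors on neighbouring cells, and Notch signalling, acting through the DNA-binding protein RBPJ, holds neural stem cells back from differentiation. The gene itself lies on another chromosome. Neighbouring genes on a chromosome often differ in function and have promoters of their own, but lie in shared chromatin domains, so they can be described together by position. Mouse chromosome 12 carries, in order, Mycn and Id2, the homeobox gene Six4, Fos, a cluster of serpin genes, the imprinted Dlk1 and Meg3 pair and the immunoglobulin heavy chain genes.

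Below are the 250 bases before the RefSeq start of the gene with the largest non-overlapping difference between lines in each stretch, among those with a promoter entry. They are shown because these genes mark the extremes of each stretch. They come from RefSeq, assembly GRCm38.p6, and read 5′ to 3′ on the gene's strand. Capitals mark the core of an RBPJ site (TGGGAA or, on the other strand, TTCCCA), the core bound by hypoxia-inducible factors (ACGTG or CACGT) and the E-box CACGTG, which contains ACGTG.
Egln3, chr12:54203875-54204124, minus strand: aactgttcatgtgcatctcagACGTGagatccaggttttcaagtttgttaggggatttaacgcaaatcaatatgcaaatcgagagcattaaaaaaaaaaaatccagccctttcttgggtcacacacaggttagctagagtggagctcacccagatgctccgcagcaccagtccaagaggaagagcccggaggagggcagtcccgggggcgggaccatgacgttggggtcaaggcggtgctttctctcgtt
Tmx1, chr12:70452904-70453153, plus strand: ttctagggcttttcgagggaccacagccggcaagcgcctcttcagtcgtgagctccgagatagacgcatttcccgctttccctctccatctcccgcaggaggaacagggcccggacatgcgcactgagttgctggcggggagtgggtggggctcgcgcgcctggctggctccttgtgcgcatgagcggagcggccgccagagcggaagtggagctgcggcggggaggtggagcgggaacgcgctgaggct
Rdh11, chr12:79191856-79192105, minus strand: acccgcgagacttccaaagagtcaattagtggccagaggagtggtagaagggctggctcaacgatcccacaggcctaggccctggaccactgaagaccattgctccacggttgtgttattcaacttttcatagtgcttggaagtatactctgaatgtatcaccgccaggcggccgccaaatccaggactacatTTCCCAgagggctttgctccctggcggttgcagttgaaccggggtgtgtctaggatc
Exoc3l4, chr12:111417180-111417429, plus strand: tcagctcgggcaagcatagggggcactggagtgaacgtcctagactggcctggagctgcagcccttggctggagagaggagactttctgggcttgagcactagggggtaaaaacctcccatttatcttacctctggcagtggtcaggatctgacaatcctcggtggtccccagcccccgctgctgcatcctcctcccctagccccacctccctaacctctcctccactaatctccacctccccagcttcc

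Egln3 holds 1 hypoxia core and Rdh11 holds 1 RBPJ core in these windows, while those of Tmx1 and Exoc3l4 hold no match. Over all 32851 promoters in the table, 21.6% hold the RBPJ core, 16.6% the hypoxia core and 6.02% the E-box. Among promoters of the 66 to 72 Mb stretch, 12 of 54 (22.2%) hold the RBPJ core, 15 (27.8%) the hypoxia core and 5 (9.26%) the E-box. In the last stretch the RBPJ core is found in 22 promoters (21.8%). The RBPJ share thus lay close to that of all promoters in both stretches. A match is a run of letters, not a bound site.

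The probe coordinates given from here on are those of the array files, whose genome build is not named there, and they are not those of GRCm38.p6. Of the 1489 probes, 1194 passed the filter, which asked for a signal well above background in mutant or in wild-type RNA on both arrays of either line, and they stood for 760 genes. That is 80.2% of the chromosome's probes, against 83.1% of all probes. The stretch from 66 to 72 Mb was the most densely filled, with 12.3 genes per Mb, against 4.18 below 66 Mb, 9.38 in the third stretch and 10.6 in the last. Its promoters had a median GC content of 64.3% and those of the last stretch 65%, where the median over all genes was 58.7%. Per channel, 80.2% to 82.2% of probes were above background, and precision is limited by the small number of arrays.

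Markers of neural and other cell types were read to check the culture. All 8 neural stem cell markers, among them Nes, Sox2 and Fabp7, were above background in every wild-type channel, with log2 levels from 6.46 to 15.2. All 4 astrocyte markers were too, as were 3 of 4 of the oligodendrocyte lineage and 3 of 4 neuronal markers, while 1 of 3 microglial and blood markers and 1 of 3 endothelial markers were. Levels in those latter groups stayed between 6.12 and 7.01. The 3 fibroblast markers were above background in every wild-type channel, at 6.49 to 6.58. Pax6 was not above background in Dll1-5 RNA. The stem cell markers did not shift together between the lines: Nes stood at -0.28 and -0.31 in Dll1-3 and at -1.11 and -1.15 in Dll1-5, whereas Fabp7 stood at -0.50 and -0.98 in the former and at 0.14 and 0.31 in the latter. Against wild type, Nes, Sox2, Vim, Slc1a3 and Pax6 were lower on all 4 arrays and Prom1 was slightly higher on all 4. Msi1 and Fabp7 had arrays on both sides of wild type. The part of these markers in the values by stretch was not tested. Dll1 itself was lower in mutant RNA on all 4 arrays, at -3.31 and -3.22 in Dll1-3 and -1.65 and -1.64 in Dll1-5.

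The position comparison asked where on the chromosome the lines moved together and where they parted. All values are on the log2 scale, mutant over wild type, and a difference is Dll1-5 minus Dll1-3. Between 66 and 72 Mb the median of 114 probes was 0.015 and 0.027 on the Dll1-3 arrays but -0.19 and -0.22 on the Dll1-5 arrays. The lines' arrays did not overlap, with Dll1-5 below wild type and Dll1-3 at about its level. The median difference was -0.28, or 0.826-fold, and 86 of the 114 probes had a difference below 0. Over all 34197 passing probes the median difference was 0.0050, and 49.0% of them had a difference below 0.

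In the last stretch the 228 probes had medians of 0.083 and 0.057 in Dll1-3 and 0.15 and 0.098 in Dll1-5. All 4 arrays thus lay above 0, and the median over both lines was 0.072, against 0.0100 over all probes. Below 66 Mb the 4 medians were negative, at -0.056, -0.068, -0.076 and -0.092. In the third stretch, from 72 Mb on, they were 0.045, -0.0029, 0.021 and -0.0079, and so lay on either side of 0. The shift of a stretch was narrow beside the range of its probes: from 66 to 72 Mb the quartiles of the difference were -0.63 and -0.0079.

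By count, 65 of the 114 probes from 66 to 72 Mb (57%) had both Dll1-5 arrays below both Dll1-3 arrays, where the background over all probes was 25.3%. Of these, 33 differed by 1.5-fold or more (28.9%; background 6.09%), and no probe of the stretch was above by that much (background 6.58%). On both Dll1-5 arrays, 22 probes were 1.5-fold lower than wild type (19.3%; background 7.6%). On both Dll1-3 arrays 12 were (10.5%; background 10.7%), a share near the background. In the last stretch 79 of 228 probes were higher than wild type on all 4 arrays (34.6%; background 23.9%), and 38 were 1.5-fold higher on both Dll1-5 arrays (16.7%; background 6.93%). The corresponding count on the Dll1-3 arrays was 28 (12.3%; background 9.44%).

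The shift was widest in the brightest probes. In 4 groups of intensity, from dim to bright, the median difference of the 66 to 72 Mb probes was -0.061, -0.073, -0.46 and -0.62. In the last stretch the median over both lines was 0.023, 0.10, 0.077 and 0.56. Background correction with an added offset pulls the ratios of dim probes towards 0, and dim probes carry less of the signal. The genes are therefore described mainly on the brighter ones, defined after the data were seen as those whose probe lies above the median intensity of all passing probes. The probe of highest mean intensity stood for each gene. This left 418 of 760 genes on the chromosome, 146, 46, 153 and 73 by stretch.

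**Figure D1:**
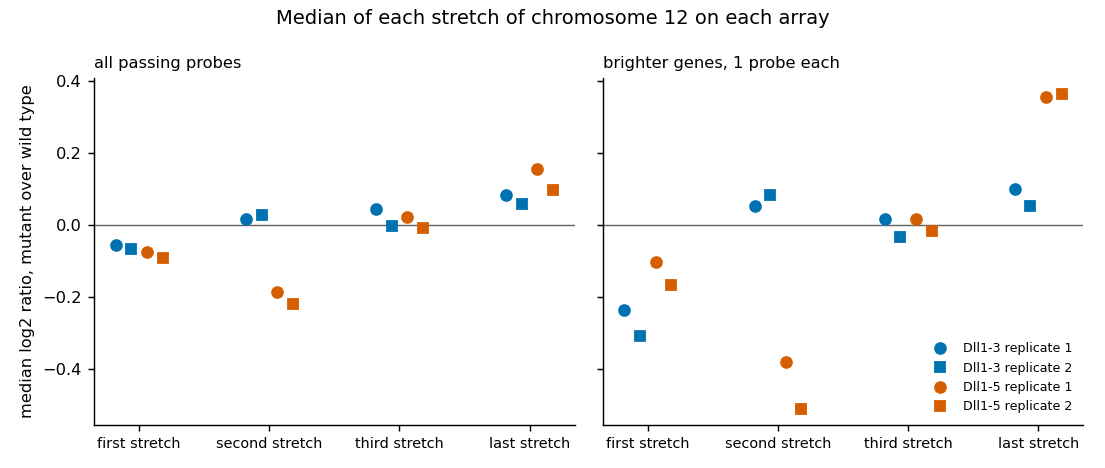
Median log2 ratio of mutant over wild type (vertical axis) of each stretch of chromosome 12, in chromosome order (horizontal axis), on each of the 4 arrays, for all passing probes (left) and for the brighter genes (right). Blue stands for Dll1-3, orange for Dll1-5, circles for replicate 1 and squares for replicate 2. In the second stretch the Dll1-5 arrays lie at -0.38 and -0.51 for the brighter genes and the Dll1-3 arrays just above 0; in the last stretch all 4 lie above 0.

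Among the 46 brighter genes from 66 to 72 Mb the medians were 0.052 and 0.083 in Dll1-3, and -0.38 and -0.51 in Dll1-5. The median difference was -0.60, a Dll1-5 level 0.661-fold that of Dll1-3, with quartiles from -0.86 to -0.33. Both Dll1-5 arrays lay below both Dll1-3 arrays for 39 of the 46 (84.8%; background 33.2%), and 23 differed in that way by 1.5-fold or more (50%; background 10.3%). None was above by 1.5-fold (background 11.2%). Median centring in place of loess, which does not remove dye differences that vary with intensity, brought the count of 39 down to 2, with a median difference of -0.77. With the offset at 10 or no correction at all, with the scanner's own ratio or the deposited table, or with outlier spots kept, the median difference lay between -0.71 and -0.58.

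The brighter genes of that stretch did not all go the same way against wild type. Of the 46, 15 were lower on all 4 arrays (background 34%) and 5 were higher on all 4 (background 31.3%). A further 13 were above wild type on both Dll1-3 arrays and below it on both Dll1-5 arrays (28.3%; background 6.03%), while 2 showed the opposite pattern (4.35%; background 6.94%). The genes had different levels against wild type but shared a lower position of Dll1-5 relative to Dll1-3. Among the 35 with plain gene symbols, 34 lay below without overlap and Syt16 alone lay above, whereas among the 11 with clone or predicted names 5 lay below and 2 above. For 27 genes of the stretch with 2 or more passing probes, all probes had a difference below 0 in 14, all above 0 in 2, and signs were mixed in 11. All probes were below 0 in 36 of 104 such genes of the first stretch, 27 of 87 of the third and 7 of 45 of the last. The share over all chromosomes was not computed.

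**Figure D2:**
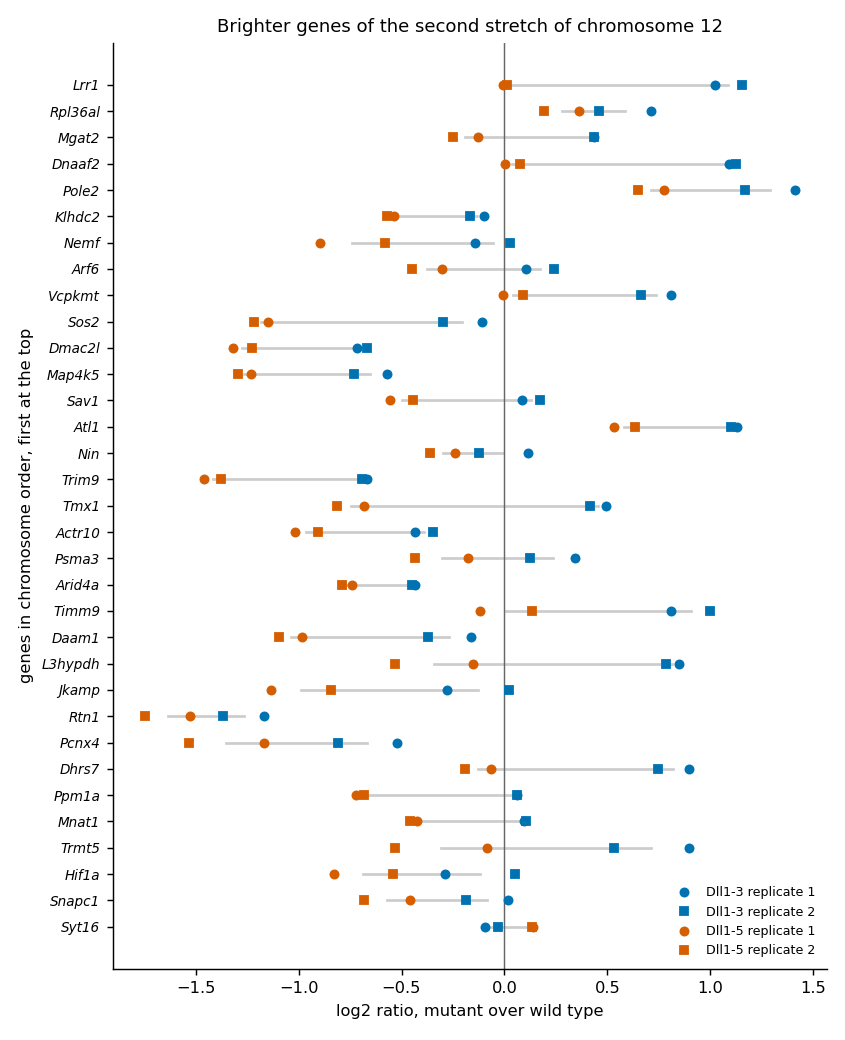
Log2 ratio of mutant over wild type (horizontal axis) of 33 brighter genes with plain symbols between 66 and 72 Mb, in chromosome order from top to bottom. Blue is Dll1-3, orange is Dll1-5, circles are replicate 1, squares replicate 2, and grey lines join the line means; orange lies left of blue in 32 of 33 genes, the exception being Syt16.

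Genes higher than wild type in Dll1-3 but not in Dll1-5 were a large group in this stretch. Lrr1, a substrate receptor of a cullin ubiquitin ligase that acts when replication ends, was at 1.02 and 1.15 in Dll1-3 and at -0.0048 and 0.015 in Dll1-5. Dnaaf2, which helps assemble the dynein arms of motile cilia, lay nearby at 1.09, 1.13, 0.0016 and 0.073 in the same array order. In both genes the Dll1-3 arrays were about a full log2 unit above wild type and the Dll1-5 arrays at its level. Between them lies Rpl36al, a ribosomal protein gene, at 0.71, 0.46, 0.36 and 0.19, which was above wild type on all 4 arrays.

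L3hypdh, a hydroxyproline dehydratase, was at 0.85 and 0.78 in Dll1-3 and at -0.15 and -0.53 in Dll1-5. Timm9, a chaperone of import into the mitochondrial inner membrane, was at 0.81 and 1.00 against -0.12 and 0.14, but its other 2 probes gave differences of -0.085 and 0.057 and no rise in Dll1-3. Tmx1, a thioredoxin-related protein of the endoplasmic reticulum (67299260 to 67299319), was at 0.49 and 0.41 against -0.68 and -0.81, a difference of -1.20, or 0.435-fold. Tmx1 was therefore above wild type in the former line and below it in the latter, on both arrays each, and its other probe gave -0.65. Dhrs7, a short-chain dehydrogenase, differed by -0.95. Trmt5, a methyltransferase of transfer RNA, differed by -1.02, whereas its other probe gave -0.028. The line difference of Timm9 and of Trmt5 thus rested on a single probe each.

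Pole2, a subunit of DNA polymerase epsilon, stayed above wild type in both lines. It was at 1.41 and 1.17 in Dll1-3 and 0.78 and 0.65 in Dll1-5, and its mean over lines was 1.00 (SD 0.41, n = 2). Atl1, a membrane-shaping GTPase of the endoplasmic reticulum, had line means of 1.11 and 0.58, but its other 2 probes gave means between -0.42 and -0.21. The level of Atl1 against wild type thus depended on the probe.

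Some genes of the stretch were below wild type in both lines, and further below in Dll1-5. Lower on all 4 arrays were 15 of the 46 brighter genes (32.6%, background 34%), a share near the background. Rtn1, a reticulon of neuronal endoplasmic reticulum, was at -1.17 and -1.37 in Dll1-3 and -1.53 and -1.74 in Dll1-5; its mean was -1.45 (SD 0.26, n = 2). Trim9, a ubiquitin ligase enriched in brain, was at -0.67, -0.69, -1.46 and -1.38, and the differences of its other 2 probes were -0.39 and 0.11. Map4k5, a kinase upstream of stress-activated MAP kinases, was at -0.57, -0.73, -1.23 and -1.30, and the differences of its other 2 probes were -0.66 and 0.14. By the probes of highest intensity these genes were low on all 4 arrays with no overlap between the lines. Pcnx4 had a mean of -1.01 (SD 0.48) and Dmac2l of -0.98 (SD 0.41), though the other Dmac2l probe was at -0.030 in Dll1-3. Sos2, an exchange factor that activates Ras, was near wild type in Dll1-3, at -0.11 and -0.30, and low in Dll1-5, at -1.15 and -1.21.

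Hif1a, the oxygen-regulated subunit of hypoxia-inducible factor, lies at 70794649 to 70794709. It was at -0.29 and 0.049 in Dll1-3 and at -0.83 and -0.54 in Dll1-5, a difference of -0.56. The arrays of the lines did not overlap, though the Dll1-3 arrays fell on either side of 0. The exceptions of the stretch were small or dim. Syt16, of the synaptotagmin family, was at -0.10 and -0.030 in Dll1-3 and 0.14 and 0.13 in Dll1-5, while its other 2 probes were above wild type in both lines, with differences of 0.021 and 0.048. Prkch, a protein kinase C, was the plain-symbol gene most above, by 0.49, and was not among the brighter genes. Six4, a homeobox transcription factor, had wild-type RNA above background on no Dll1-5 array, so no line difference is given for it.

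Each array carries mutant and wild-type RNA, so a difference between lines could lie in either channel. The levels of the 46 brighter genes on the Dll1-5 arrays were set against those on the Dll1-3 arrays within the same RNA and the same dye. Each difference was centred on the median of all brighter probes, so as many of those probes lie below 0 as above it. The share over all brighter genes was not computed. In mutant RNA the median difference in level was -0.73 in replicate 1 and -0.62 in replicate 2, with 41 and 42 of the 46 genes below 0. In wild-type RNA it was -0.038 and -0.033, with 30 and 27 below 0. The line difference of the 66 to 72 Mb stretch was thus found in the mutant channels. In the last stretch mutant RNA gave 0.20 and 0.18 and wild-type RNA 0.022 and -0.016.

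**Figure D3:**
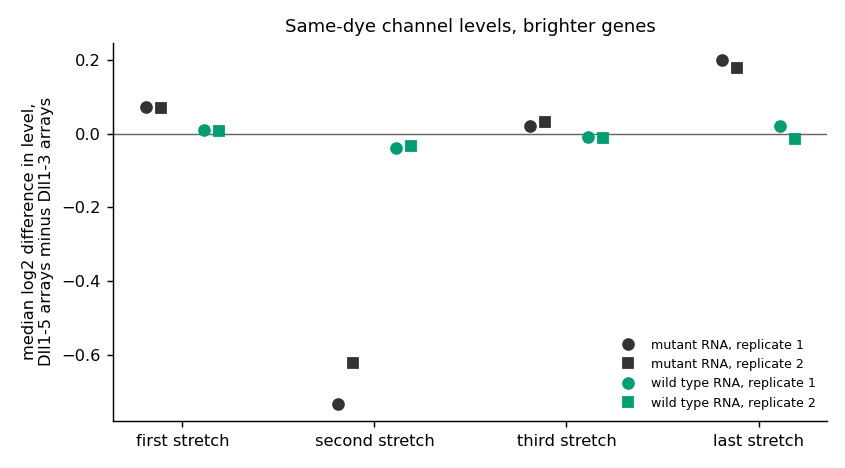
Median log2 difference in level between the Dll1-5 and the Dll1-3 arrays (vertical axis) of the brighter genes in each stretch of chromosome 12 (horizontal axis), for mutant RNA (black) and wild-type RNA (green), each within a single dye; circles are replicate 1 and squares replicate 2. Mutant RNA of the second stretch lies at -0.73 and -0.62, while its wild-type RNA lies at -0.038 and -0.033. Differences were centred on the median of all brighter probes.

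The genes on either side of each border give the values nearest to it. At 66 Mb Rps29, a ribosomal protein gene just before the border, had a difference of -0.14 from a probe saturated on 2 arrays, and Lrr1 just after it had -1.08. At 72 Mb Kcnh5, a potassium channel gene just inside, was at 0.17, and Rhoj, a small GTPase just outside, was at -0.80. At the last border Tunar before and Bdkrb2 after had differences of 0.060 and 0.048. The border at 72 Mb thus did not mark an end of the lower values.

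Windows of 3 Mb over the brighter genes showed how far the difference reached. Of the brighter genes of all chromosomes, 45.5% had a difference below 0. The median difference was -0.62 from 66 to 69 Mb (34 genes, 30 below 0) and -0.55 from 69 to 72 Mb (12 genes, 10 below 0). It went on at -0.51 from 72 to 75 Mb (15 genes, 11 below 0) and -0.19 from 75 to 78 Mb (21 genes, 14 below 0), and was 0.19 from 78 to 81 Mb. Before 66 Mb it was -0.21 from 51 to 54 Mb, where 13 of 16 genes were below 0, and -0.38 from 60 to 63 Mb, where 5 of 6 were. The 3 genes from 63 to 66 Mb had a median of 0.13. Window medians of -0.19 or lower therefore ran from 51 to 78 Mb, apart from that gap and a part from 57 to 60 Mb with no brighter gene, and were largest between 66 and 75 Mb.

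Genes beyond 72 Mb shared that form. Rhoj was at 0.17 and 0.35 in Dll1-3 and at -0.59 and -0.48 in Dll1-5. Ppp2r5e, a regulatory subunit of protein phosphatase 2A, was at -0.13, -0.12, -1.31 and -1.35, with other probes between -0.71 and 0.14 in difference. Fut8, the enzyme of core fucosylation, was at 0.88, 0.73, -0.39 and -0.56. Each was lower in Dll1-5 on both arrays. Rdh11, a retinol dehydrogenase (76030900 to 76030959), had the largest difference of this side, with 0.97 and 0.95 against -0.84 and -0.79. That is a difference of -1.77, or 0.292-fold, and its other probe gave -2.06. Rad51b, a gene of homologous recombination, was at 0.92 and 1.06 against -0.072 and -0.010. Max, the dimerisation partner of Myc proteins, differed by -0.45.

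**Figure D4:**
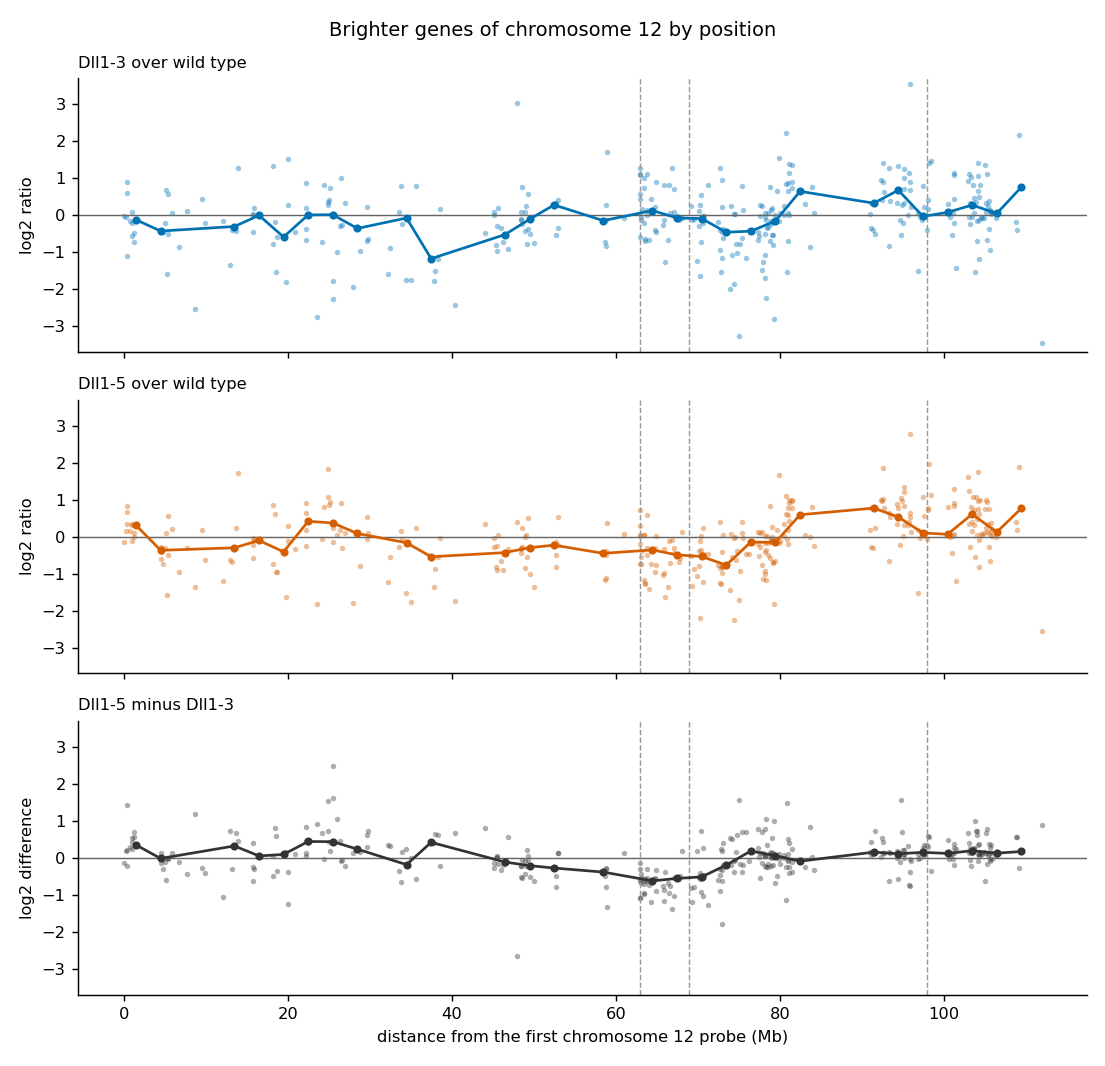
Log2 ratio of mutant over wild type in Dll1-3 (top) and Dll1-5 (middle), and the difference between them (bottom), of the brighter genes with plain symbols (points) against distance from the first chromosome 12 probe in Mb (horizontal axis). Lines join medians of all brighter genes in windows of 3 Mb with at least 5 genes, and dashed lines mark the borders between stretches; the difference dips to -0.62 just after the first border and is still -0.51 after the second.

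Differences of this size by position were not confined to chromosome 12. Among 439 windows of 3 Mb with at least 10 brighter genes on the other chromosomes, the median difference ran from -0.90 to 0.89 and the median over both lines from -1.06 to 0.76. The 19 such windows on chromosome 12 ran from -0.62 to 0.44 and from -0.68 to 0.66, within those ranges. The longest run of neighbouring brighter genes all lower in Dll1-5 held 13 genes on chromosome 12, from Pole2 on, and between 4 and 34 on the other 19 chromosomes. For whole chromosomes the median difference of brighter genes was 0.058 on chromosome 12 and from -0.25 to 0.20 on the others.

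Below 66 Mb the brighter genes had medians of -0.24 and -0.31 in Dll1-3 and -0.10 and -0.17 in Dll1-5, and 62 of 146 were lower on all 4 arrays (42.5%; background 34%). Those with the lowest values included Pxdn, a peroxidase of the extracellular matrix, at -2.63, -2.86, -1.71 and -1.92. Nova1, a neuronal splicing factor, was at -2.37, -2.47, -1.54 and -1.93. Both were low on all 4 arrays, and lower in Dll1-3. The highest over both lines were Egln3 and Odc1, the first enzyme of polyamine synthesis, which was at 1.29, 1.24, 1.76 and 1.70. Rrm2, the small subunit of ribonucleotide reductase, was at 1.47, 1.21, 0.93 and 0.76.

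The widest line differences of the chromosome's named genes fell below 66 Mb, in both directions. Egln3, a prolyl hydroxylase that marks hypoxia-inducible factor subunits for degradation, was at 2.98 and 3.08 in Dll1-3 and at 0.42 and 0.35 in Dll1-5, a difference of -2.65, or 0.16-fold. It was higher than wild type on all 4 arrays and higher still in Dll1-3. Prkar2b, a regulatory subunit of protein kinase A, went the other way, at -2.38 and -2.13 in Dll1-3 and 0.20 and 0.26 in Dll1-5. Lamb1, a laminin chain, was at 0.37, 0.20, 1.92 and 1.73, and Ncoa1, a nuclear receptor coactivator, at -1.12, -1.10, 0.28 and 0.38. The Hbp1 probe of highest intensity gave 1.63 as difference, and its other 2 gave -0.079 and 0.73. Lamb1, Hbp1 and Prkar2b all lie between 27 and 30 Mb, where the window median was 0.44 over 14 genes.

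In the third stretch the brighter genes had a median over both lines of -0.014, and the stretch held windows of opposite sign. The median over both lines was -0.63 from 75 to 78 Mb, but 0.62 from 84 to 87 Mb, 0.55 from 93 to 96 Mb and 0.66 from 96 to 99 Mb. Of the 23 brighter genes in the last of these, 16 were higher on all 4 arrays (background 31.3%). Windows above wild type thus began well before the last border. Ifi27l2a, an interferon-induced gene, was at 3.58 and 3.49 in Dll1-3 and 2.78 in both Dll1-5 arrays, a mean of 3.16 (SD 0.53, n = 2). Tgfb3, a growth factor of the TGF-beta family, was at 1.52 in the lowest and 1.76 in the highest of the 4 arrays, with overlapping lines.

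The lowest of that stretch lay in its first part. Smoc1, a secreted calcium-binding matrix protein, was at -3.32, -3.22, -1.82 and -1.60, a mean of -2.49 (SD 1.11, n = 2). Fos, an immediate early transcription factor, was at -2.91, -2.72, -1.83 and -1.82. Both were further below wild type in Dll1-3. Galnt16, which starts mucin-type glycan chains, had a mean of -2.05 (SD 0.27), and Hspa2, a heat shock protein of the HSP70 family, of -1.92 (SD 0.40). Lgmn, a lysosomal protease, parted the lines, at -0.58 and -0.47 in Dll1-3 and 1.06 and 1.04 in Dll1-5.

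In the last stretch the brighter genes had medians of 0.10 and 0.053 in Dll1-3 and 0.35 and 0.36 in Dll1-5. The median over both lines was 0.19 and 53 of 73 genes lay above 0. Over all brighter genes the median was -0.018 and 48.4% lay above 0. Higher on all 4 arrays were 37 (50.7%; background 31.3%), and 42 had both Dll1-5 arrays above both Dll1-3 arrays (57.5%; background 37.9%). On both Dll1-5 arrays 28 were 1.5-fold higher (38.4%; background 12.4%) and on both Dll1-3 arrays 19 were (26%; background 16.5%). Median centring brought the count of 42 down to 3, with a median over both lines of 0.35 and a median difference of 0.12, where the main values were 0.19 and 0.18. By window the excess was uneven, at 0.062 from 102 to 105 Mb, 0.34 from 105 to 108 Mb (17 of 31 genes higher on all 4 arrays) and 0.073 from 108 to 111 Mb. The last windows held few genes, 5 with a median of 0.76 from 111 to 114 Mb and 2 with -1.71 beyond that, both lower on all 4 arrays.

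The highest named gene of the last stretch acts on chromosome structure. Ncapg2, a subunit of condensin II (112226187 to 112226246), was at 2.17 and 2.16 in Dll1-3 and 1.99 and 1.79 in Dll1-5, with a line mean of 2.03 (SD 0.19, n = 2). Papola, the poly(A) polymerase of messenger RNA, was at 1.48, 1.33, 2.03 and 1.91, though its other 2 probes gave means from 0.33 to 0.80. Trmt61a, a methyltransferase of transfer RNA, was at 1.51, 1.31, 1.81 and 1.70. All 3 were more than 2-fold above wild type in both line means. Vrk1, a kinase of chromatin proteins, had a mean of 1.30 (SD 0.26), Yy1, a zinc finger transcription factor, of 1.21 (SD 0.10) and Hsp90aa1, a cytosolic chaperone, of 1.17 (SD 0.087). The other 2 probes of Yy1 gave line means from 0.40 to 0.98.

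The lowest of the last stretch was Itgb8, an integrin subunit that activates latent TGF-beta, near the end at 114969974 to 114970033. It was at -3.61 and -3.29 in Dll1-3 and -2.59 and -2.52 in Dll1-5. Mutant RNA was above background on 1 of the 2 Dll1-3 arrays. Its other 3 probes gave line means from -0.82 to -0.12, so the size of the fall depended on the probe. Exoc3l4 was at -1.82, -1.26, -0.65 and -0.44, and Klc1, a kinesin light chain, had a mean of -1.19 in Dll1-3 and -0.82 in Dll1-5, while its other probe gave -0.33 and -0.36 in that order. Wdr25 was at -1.27 to -1.61 in Dll1-3, but its other probe gave 0.20 and 0.29. Ckb, brain creatine kinase, was saturated on all 4 arrays, and its values there carry no order.

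Gene lists of known function were read across the chromosome, each as counts beside the background over all genes (24.1% higher and 26% lower on all 4 arrays, 24.5% with Dll1-5 below and 28.8% with Dll1-5 above). Of 16 replication, repair and cell cycle genes, 8 were higher and 3 lower on all 4 arrays, and 11 had both Dll1-5 arrays below both Dll1-3 arrays. The median difference of that list was -0.26, against 0.013 over all genes. By position, 7 of its 8 genes from 51 to 78 Mb had Dll1-5 below, and 4 of its 8 genes elsewhere on the chromosome. The limits of 51 and 78 Mb came from window medians of these same differences, so this split supports nothing. Besides Pole2 and Rrm2 it held Cdca4, a cell division gene with a mean of 1.03 (SD 0.11). Of 22 transcription factors that passed among 27 listed, 2 were higher and 9 lower on all 4 arrays. Id2, which blocks DNA binding by basic helix-loop-helix proteins, was at -0.44, -0.73, -0.79 and -1.10, and Sox11, a factor of young neurons, at -0.44, -0.45, -0.29 and -0.41, though other Sox11 probes had Dll1-3 means from -1.04 to 0.19. Mycn had no Dll1-3 array with wild-type RNA above background. Its measured ratio there was 1.74-fold, from a dim probe, while its other probe gave a log2 ratio of -0.10.

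Of 7 Notch pathway genes, 2 were higher and 1 lower on all 4 arrays. Numb, an inhibitor of Notch, was at -0.0081, -0.040, 0.10 and 0.095. Jag2, another Notch ligand, was at 0.030, 0.025, 0.34 and 0.24. Snw1, a splicing and transcription cofactor that binds the Notch complex, was at 0.93, 0.54, 1.20 and 0.78. Jag2 was above wild type on all 4 arrays and further above in Dll1-5, by 0.26, and Snw1 was above wild type on all 4 arrays too.

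Of 18 signalling and stress genes, 6 were higher and 6 lower on all 4 arrays, with 4 below and 8 above between the lines. Of the imprinted domain, 2 of 7 listed genes passed: Dlk1, a Notch-related membrane protein, was at -0.047, -0.063, -0.17 and -0.065, and Meg3, its maternally expressed noncoding neighbour, at 0.10, -0.030, -0.0011 and 0.059. Both were dim. Of 5 serpin genes that passed, 2 were higher and 1 lower on all 4 arrays. Serpina3n, a protease inhibitor of reactive astrocytes, was the lower, at -1.72, -1.27, -1.57 and -1.48. Of 7 immunoglobulin heavy chain entries, 2 were higher on all 4 arrays and the list's median over both lines was 0.073, close to the 0.072 of all probes of the last stretch. B cell markers were read beside them: 2 of 3 were above background in all wild-type channels, at log2 levels from 6.46 to 7.31, and their part was not tested.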

How the data were processed

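Total RNA of mutant and wild-type neurospheres was measured on 4 Agilent arrays of 2 colours (43790 spots each, 2256 of them controls). The authors deposited scanned intensity values from Agilent Feature Extraction 8.1.1.1, per the submitters' processing notes, and a value table in log10. That table proved to be wild type over mutant (r from -0.962 to -0.954 with the scanner's own ratios turned to mutant over wild type). How it was centred was not given in the sources used here.

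Mean signals were background-corrected with normexp (offset 50) and normalised by loess within arrays (span 0.3) in limma 3.58.1 and R 4.3.3, with control and outlier spots at weight 0. Spots of a probe were averaged, and ratios turned to log2 mutant over wild type. The filter kept 34197 of 41174 probes. A gene was its probe of highest mean intensity (22997 genes). Stretch summaries were checked on simulated data. Windows were 3 Mb wide.

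Names came from RefSeq GRCm38.p6 by accession for 690 chromosome 12 probes, symbol for 278 and synonym for 145, and 376 kept the file's name. A further 27 probes on unplaced chromosome 12 sequence were not used. Named genes were the 5 highest and 5 lowest over both lines and the 4 widest line differences each way per stretch, the brighter genes from 66 to 72 Mb, the genes beside each border, and members of 7 lists. Members and lists were chosen with earlier results of these data known. Alternatives changed the background correction, ratio source, centring, filters, probe summary, borders and arrays. Some genes are not reported here.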

Additional observations from a re-analysis of the deposited data

Results flagged for a closer look

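The median of the 66 to 72 Mb probes lay just above 0 on both Dll1-3 arrays, at 0.015 and 0.027 where all probes had 0.010 and -0.012, and below 0 on both Dll1-5 arrays. The difference was -0.28 (Dll1-5 minus Dll1-3) and was not tested. Among the genes that the naming rule covers and that are reported here, the following also lay on opposite sides of wild type in the lines on every array, and none of these differences was tested. The sides were set by the probe of highest intensity, and other probes of a gene can differ, as for Trmt5, Syt16 and Fancm. Fancm was not among the brighter genes, and its other probes gave differences from -0.31 to 0.39. Dll1-5 was the lower from 66 to 72 Mb for Tmx1 (-1.20), L3hypdh (-1.16), Trmt5 (-1.02), Dhrs7 (-0.95), Ppm1a (-0.76), Sav1 (-0.63), Mgat2 (-0.63), Arf6 (-0.55), Mnat1 (-0.54) and Psma3 (-0.54). It was the lower elsewhere for Rdh11 (-1.77), Fut8 (-1.28), Rad51b (-1.03), Rhoj (-0.80) and Fancm (-0.17). Dll1-5 was the higher for Prkar2b (2.48), Lgmn (1.58), Ncoa1 (1.44), Bcl11b (0.92), Prkd1 (0.82), Clba1 (0.79), Syt16 (0.20) and Numb (0.12). Bcl11b, a zinc finger transcription factor, was above background in Dll1-3 RNA on 1 of 2 arrays.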

How the results depend on the processing

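Stretches are numbered 1 to 4 in chromosome order, and values are log2. Stretch 2 had Dll1-5 below Dll1-3 in all 22 alternatives (-0.59 to -0.17) and stretch 4 was above wild type over both lines in all 19 (0.044 to 0.23); stretch 1 was below in all 19, while stretch 3 lay near 0 and changed sign in 3 alternatives over both lines and in 8 for the difference. The cause was not tested. With no background correction, the median over both lines was -0.045 (stretch 1), and differences were 0.012 (stretch 1) and -0.24 (stretch 2). With an offset of 10, medians over both lines were -0.091 (stretch 1) and 0.12 (stretch 4), and differences were 0.044 (stretch 1), -0.40 (stretch 2) and 0.088 (stretch 4). With the scanner software's ratio, medians over both lines were -0.11 (stretch 1), 0.030 (stretch 3) and 0.17 (stretch 4), and differences were 0.046 (stretch 1), -0.58 (stretch 2), -0.038 (stretch 3) and 0.090 (stretch 4). With the deposited table, medians over both lines were -0.11 (stretch 1), 0.033 (stretch 3) and 0.17 (stretch 4), and differences were 0.050 (stretch 1), -0.58 (stretch 2), -0.033 (stretch 3) and 0.10 (stretch 4). With median centring, the median over both lines was 0.063 (stretch 4), and differences were -0.33 (stretch 2) and -0.017 (stretch 3). With no filter on dim probes, medians over both lines were -0.028 (stretch 1) and 0.044 (stretch 4), and differences were 0.0082 (stretch 1), -0.17 (stretch 2) and -0.0046 (stretch 3). With both channels above background on all 4 arrays, medians over both lines were 0.0046 (stretch 3) and 0.083 (stretch 4), and differences were 0.036 (stretch 1), -0.43 (stretch 2) and 0.016 (stretch 3). With 1 probe per gene, medians over both lines were -0.039 (stretch 1) and 0.0060 (stretch 3), and differences were 0.035 (stretch 1), -0.31 (stretch 2) and 0.012 (stretch 3). With the mean of a gene's probes, the median over both lines was -0.040 (stretch 1), and the difference was 0.035 (stretch 1). With the mean over probes, medians over both lines were -0.14 (stretch 1), -0.0011 (stretch 3) and 0.17 (stretch 4), and differences were 0.049 (stretch 1), -0.34 (stretch 2), -0.0069 (stretch 3) and 0.11 (stretch 4). With borders moved 1 Mb towards the end, the median over both lines was 0.025 (stretch 3), and differences were 0.0058 (stretch 1) and -0.19 (stretch 2). With the brighter probes, medians over both lines were -0.20 (stretch 1), -0.021 (stretch 3) and 0.19 (stretch 4), and differences were 0.093 (stretch 1), -0.57 (stretch 2), 0.043 (stretch 3) and 0.17 (stretch 4). With the brighter probes at an offset of 10, medians over both lines were -0.23 (stretch 1), -0.028 (stretch 3) and 0.23 (stretch 4), and differences were 0.12 (stretch 1), -0.59 (stretch 2), 0.059 (stretch 3) and 0.20 (stretch 4). The brighter probes were an alternative chosen after seeing the data. Leaving out each array in turn, which unbalances the dyes, gave medians over both lines of -0.074 to -0.057 (stretch 1), -0.10 to -0.082 (stretch 2), 0.0090 to 0.019 (stretch 3) and 0.083 to 0.090 (stretch 4), and differences of 0.0078 to 0.047 (stretch 1), -0.35 to -0.29 (stretch 2), -0.020 to 0.022 (stretch 3) and 0.025 to 0.10 (stretch 4). The replicate number is the dye orientation: with the replicate block, number 1 alone gave 0.029 (stretch 1) and -0.32 (stretch 2), number 2 alone gave 0.026 (stretch 1) and -0.0027 (stretch 3), and their mean gave -0.28 (stretch 2). Dim signal limits what can be seen, since near background the ratios of dim probes are pulled towards 0.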
